A study of Mus musculus with 2 samples.

Results

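Integrins are cell surface receptors built from 1 α and 1 β subunit, and laminins are secreted proteins of the basement membrane built from 1 α, 1 β and 1 γ chain. The genes of both families were followed here in primary mouse myoblasts, the dividing muscle precursors that satellite cells give rise to, after deletion of Mll1. The families were chosen with earlier results of these data known. Within them members were taken by name, as probe sets of the array with exactly 1 gene symbol that is an integrin α or β gene or a laminin chain gene. This gave 37 genes of the 19938 genes named by 1 symbol on the array, namely 27 integrins and 10 laminins, measured by 38 probe sets because Itgad has 2. They include all 27 integrin subunit genes of the RefSeq annotation of GRCm38.p6. The letters of the rule also matched Itgb3bp, which encodes centromere protein R and is no integrin subunit. It is given apart from the members, with log2 signals of 4.87 in the MLL1 KO array and 4.56 in the Control array, and is counted in the list of integrin adhesome genes below.

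Both cultures came from 1 myoblast line of Rosa-CreER / MLL1 fl/fl mice, in which the Cre recombinase is expressed from the Rosa26 locus in every cell and enters the nucleus only in the presence of 4-hydroxytamoxifen. The MLL1 KO culture was grown for 7 days with 500 nM 4-hydroxytamoxifen in 0.01% ethanol, and the Control culture for 7 days with 0.01% ethanol alone. According to the labels both were then kept for 3 days without drug or ethanol, a washout for which the methods give a shorter time, in medium with 20% serum and 5 ng/ml FGF. The methods give an age of 5 to 6 weeks for the mice whose hind limb muscles gave such myoblasts. Before culture the cells had been depleted of those that carry CD11b (the product of Itgam), CD31, CD45 or SCA1 and then enriched with an antibody to α7-integrin (the product of Itga7), so that 2 of the genes described here were also used to purify the starting cells of both cultures. The dishes were coated with collagen.

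Each condition has 1 Affymetrix MoGene 1.0 ST array, which gives 1 log2 signal per probe set after the authors' RMA normalization. Every difference below is the MLL1 KO signal minus the Control signal on the log2 scale. With 1 array per condition there is no spread between cultures, no standard error and no test, so none of the differences has a replicate check, and precision is limited by the number of arrays. Bulk RNA also cannot tell fewer cells of a type from less RNA per cell. A difference over 2-fold was taken from the methods as the cut-off, and a log2 signal over 7 in the higher array separates the brighter probe sets from the dim ones. The methods applied that signal limit to lower genes and a limit of 8 to higher genes, which Itga3 passes and Itga4 does not. Probe sets differ in how well they bind, so signals are compared between the arrays and not between genes.

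Kmt2a, which encodes MLL1, had log2 signals of 9.66 in the MLL1 KO array and 9.44 in the Control array. Its probe set gives 1 value for the whole transcript and therefore checks nothing about the loss of the floxed exons. Of 9 myoblast markers all 9 had a signal over 7 in the higher array, among them Myod1 with 12.27 in the MLL1 KO array and 12.15 in the Control array, and 1 differed by over 2-fold, Myf5, with 6.14 in the MLL1 KO array and 9.51 in the Control array. Of 8 endothelial markers none had such a signal, and of 11 leukocyte markers 1, Cd68, did. Of 7 measured fibroblast markers 1, Col3a1, had such a signal, as did Acta2 and Rgs5 among 6 of pericytes and smooth muscle. The fibroblast list held 8 genes. The other, Ly6a, which encodes SCA1, was not among the genes named by 1 symbol and is left out of this count. The paper lists Ly6a among its most strongly upregulated genes after deletion of Mll1. Of 8 genes of differentiating muscle 7 were higher in the MLL1 KO array, and Mymk and Mef2c passed 2-fold, against 1.22% of all genes. The list had a median log2 difference of 0.72. Signals of that list ranged from 5.76 to 10.76 in the MLL1 KO array and from 5.87 to 9.83 in the Control array. The part of this list in any difference of an integrin or laminin gene was not tested.

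The α subunit of an integrin largely sets what the receptor binds, whereas the β subunit recruits talin and kindlin, which link it to actin. In muscle, laminin of the basement membrane that surrounds each fiber and its satellite cells is bound by α7β1 integrin and by dystroglycan at the cell surface. Loss of the laminin α2 chain or of integrin α7 causes muscular dystrophy in mice and humans. MLL1 is a histone H3 lysine 4 methyltransferase with a zinc finger domain that binds DNA with unmethylated CpG dinucleotides.

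The promoters of Itga3 and Itga4 are shown because these were the only members past 2-fold, and that of Itgav because it is a member whose signal hardly differed. Each window runs from 250 bases before to 50 bases after a RefSeq start, on GRCm38.p6. Capitals mark the E-box CANNTG, the motif of myogenic basic helix-loop-helix factors. The pattern CANNTG is its own reverse complement, so a search of 1 strand finds the matches on both.
Itga3, chr11:95076665-95076964, minus strand: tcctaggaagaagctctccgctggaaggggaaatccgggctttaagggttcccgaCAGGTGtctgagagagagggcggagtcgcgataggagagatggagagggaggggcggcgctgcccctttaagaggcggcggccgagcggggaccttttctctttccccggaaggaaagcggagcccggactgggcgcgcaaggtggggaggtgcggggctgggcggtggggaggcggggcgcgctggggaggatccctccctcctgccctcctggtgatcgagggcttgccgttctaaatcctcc
Itga4, chr2:79255176-79255475, plus strand: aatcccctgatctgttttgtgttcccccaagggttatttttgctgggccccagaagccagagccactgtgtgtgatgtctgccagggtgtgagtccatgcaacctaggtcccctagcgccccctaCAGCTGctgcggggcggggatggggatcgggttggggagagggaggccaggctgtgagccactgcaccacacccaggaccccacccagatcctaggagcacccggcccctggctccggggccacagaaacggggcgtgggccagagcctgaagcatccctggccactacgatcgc
Itgav, chr2:83724147-83724446, plus strand: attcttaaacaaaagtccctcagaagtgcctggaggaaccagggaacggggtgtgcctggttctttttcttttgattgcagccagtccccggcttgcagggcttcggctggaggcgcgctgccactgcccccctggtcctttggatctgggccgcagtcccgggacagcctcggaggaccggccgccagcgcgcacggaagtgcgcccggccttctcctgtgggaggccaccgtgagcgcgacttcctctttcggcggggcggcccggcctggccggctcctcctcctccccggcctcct

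The windows of Itga3 and Itga4 hold 1 E-box each and that of Itgav holds none, while 72.3% of the 32851 promoter windows in the table hold at least 1. The windows of Itga3 and Itgav hold 24 CpG dinucleotides each, and 81.6% of all windows hold as many or fewer, while the window of Itga4 holds 10. A second RefSeq start of Itga3 has a window with 5 CpG dinucleotides and 1 E-box. Of the 37 genes, 24 had a window in the table, 27 windows in all, with a median of 10 CpG dinucleotides against 7 over all windows. An E-box was found in 85.2% of the members' windows, and the GC box GGGCGG, searched on both strands, in 44.4% of them and in 35.7% of all windows. These are matches of letters and say nothing about binding in these cells.

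Of the 38 probe sets, 2 were higher in the MLL1 KO array by over 2-fold, against 1.18% of all 21789 named probe sets. None was lower by over 2-fold, against 0.101% of all. Both that passed, Itga3 and Itga4, belong to the 15 members with a signal over 7. Among all named probe sets with such a signal 1.68% were higher by that much and 0.177% were lower. At the looser limit of 1.5-fold the same 2 genes were higher and 2 laminin γ chains, Lamc1 and Lamc3, were lower, against 4.85% and 2.03% of all named probe sets. The 1.5-fold call of Lamc3 ended under centring and once a lowess curve fitted to differences against signal was subtracted. Itga8 passed 1.5-fold with that curve subtracted and after quantile normalization was repeated. The median log2 difference of the 38 probe sets was -0.08, beside -0.05 over all named probe sets, and 13 were higher and 25 were lower. The share that was higher was 34.2% as deposited, beside 41.2% over all named probe sets, and among the members it was 42.1% after centring each difference on the array-wide median, and 44.7% both after removal of a lowess trend and after repeated quantile normalization. The lean toward lower values thus moved with the scaling, but so did the differences of the whole array. The median over all named probe sets became 0.01 after centring, 0 without the lowess trend and -0.02 after repeated quantile normalization. The share of all named probe sets that was higher was not computed under these scalings, so 41.2% is no measure for the rescaled shares.

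**Figure D1:**
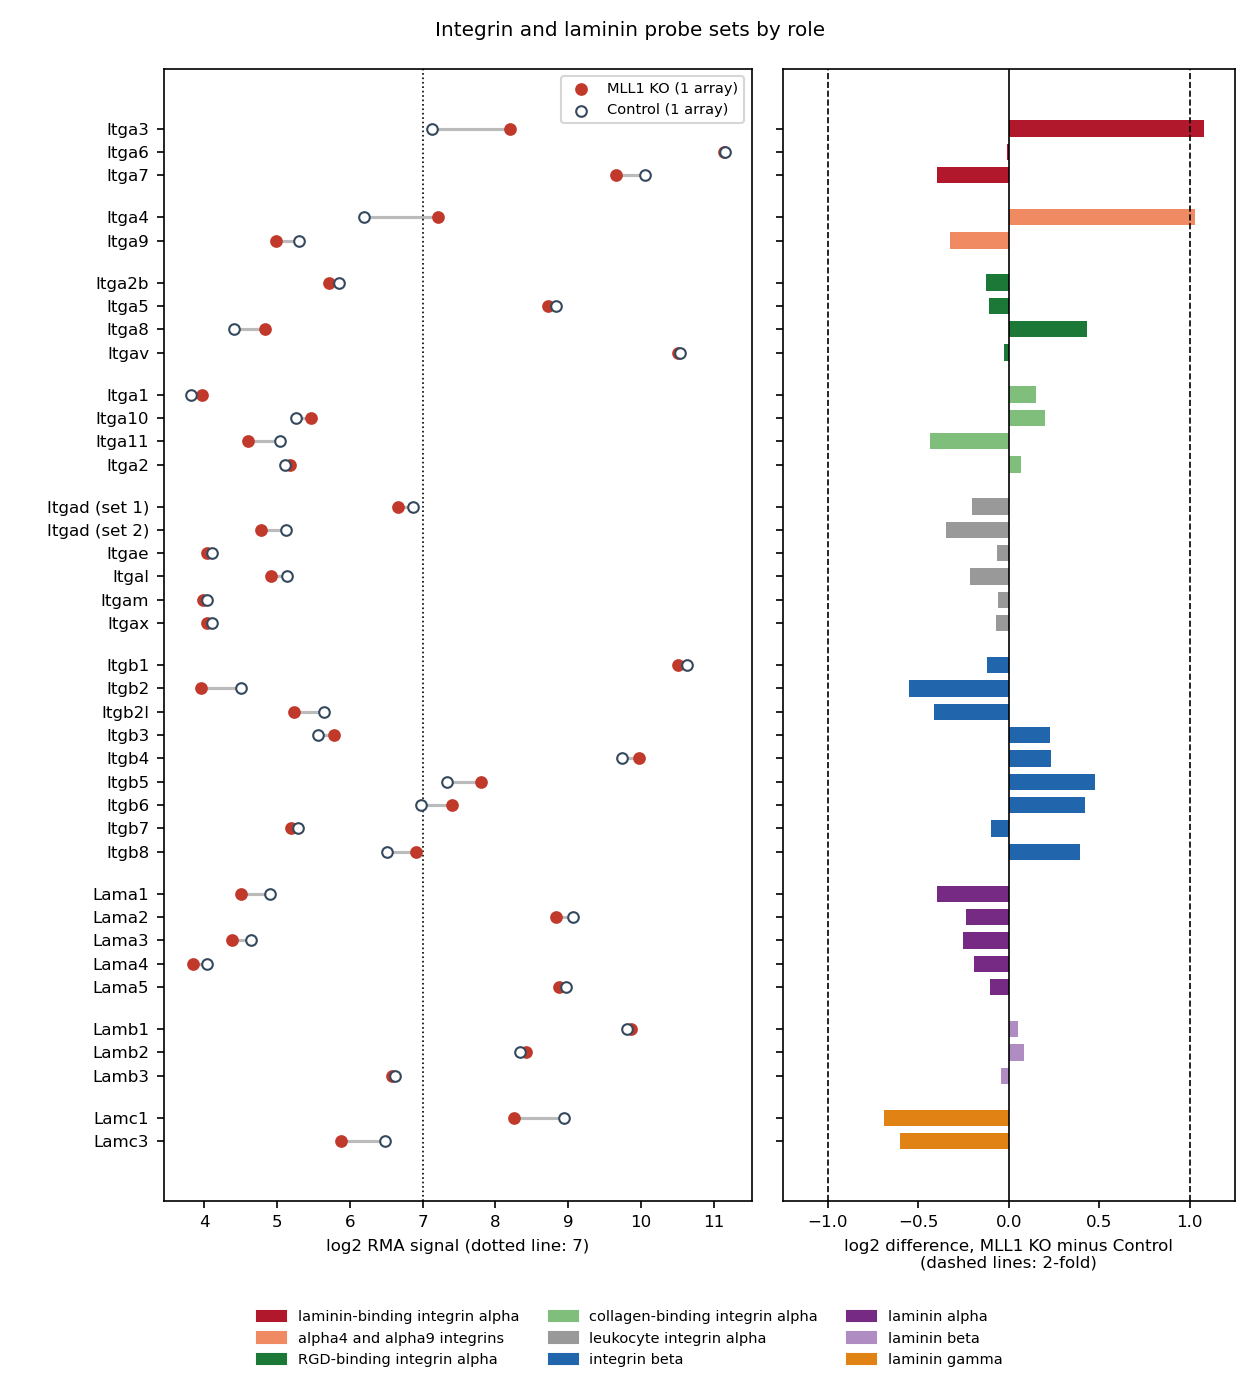
The left panel plots the log2 RMA signal of each of the 38 probe sets in the MLL1 KO array (filled points) and the Control array (open points), with a dotted line at 7; the right panel plots the log2 difference, MLL1 KO minus Control, coloured by role, with dashed lines at 2-fold. Only the bars of Itga3 (1.08) and Itga4 (1.03) pass a dashed line, and Lamc1 (-0.69) and Lamc3 (-0.60) have the lowest bars.

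The 3 integrin α subunits that bind laminin, α3, α6 and α7, all had a signal over 7, and they differed from each other: 1 was over 2-fold higher, 1 hardly differed and 1 was lower by less than 1.5-fold. Itga3 (probe set 10390117), whose product pairs with β1 and binds laminins with α3 or α5 chains, had a log2 signal of 8.21 in the MLL1 KO array and 7.13 in the Control array. It was thus 2.11-fold higher, with the largest positive difference of both families. All named probe sets were ranked by mean signal and cut into 10 bins, and in the bin of Itga3, with 2179 probe sets, 1.61% were as high or higher. Itga6, which encodes the α6 subunit that pairs with β1 or β4, had signals of 11.14 in the MLL1 KO array and 11.15 in the Control array. Its log2 difference of -0.01, the smallest in size of all members, changed sign under centring and under repeated quantile normalization. Itga7, whose product is the main laminin receptor of skeletal muscle, had signals of 9.66 in the MLL1 KO array and 10.06 in the Control array and was 1.31-fold lower. In its bin of signal 4.31% were as low or lower. This is the receptor by which the cells were purified. The splice forms of the α6 and α7 subunits share a probe set and were not separated.

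Itga4 (probe set 10473125) encodes the α4 subunit, which binds fibronectin and the cell adhesion molecule VCAM-1 and is best known from leukocytes, although myoblasts and developing muscle also carry it. It had a log2 signal of 7.22 in the MLL1 KO array and 6.19 in the Control array and was 2.04-fold higher, just past the cut-off. Of the probe sets with a similar signal 3.03% were as high or higher. Itga9, its closest relative, had the dim signals of 4.98 in the MLL1 KO array and 5.30 in the Control array. Ptprc, the common leukocyte antigen CD45, had signals of 3.69 in the MLL1 KO array and 3.83 in the Control array, and 9 of the 11 leukocyte markers were lower in the MLL1 KO array, or 7 without the lowess trend. The other 2 were Laptm5 and Cd68, and Cd68, which encodes a lysosomal protein of macrophages, was 2.62-fold higher with signals of 7.47 in the MLL1 KO array and 6.08 in the Control array. Signals of the list ranged from 3.24 to 7.47 in the MLL1 KO array and from 3.48 to 6.08 in the Control array. Of the 11 markers 1 had a signal over 7 in the higher array. Of the 12167 named probe sets with no such signal 8142 were lower as deposited. Whether leukocytes had a part in the signal of Itga4 was not tested. When the arrays were quantile normalized again, the log2 differences of Itga3 and Itga4 were 0.98 and 0.96, and neither passed 2-fold.

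Among the α subunits whose receptors bind the RGD motif of fibronectin and vitronectin, the bright ones differed little. Itgav, which encodes the αv subunit shared by several receptors, had log2 signals of 10.52 in the MLL1 KO array and 10.54 in the Control array, a difference whose sign turned under centring. Itga5, whose product forms the classical fibronectin receptor with β1, had 8.73 in the MLL1 KO array and 8.84 in the Control array. Itga2b, the platelet subunit, and Itga8 were dim, and Itga8 had signals of 4.84 in the MLL1 KO array and 4.4 in the Control array, a log2 difference of 0.43. In its bin of signal 3.07% were as high or higher, and its difference was 0.63 without the lowess trend and 0.59 after repeated quantile normalization. The 4 collagen-binding subunits, Itga1, Itga2, Itga10 and Itga11, were all dim, with signals between 3.81 and 5.46 and log2 differences from -0.44 to 0.20, on dishes coated with collagen.

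The 5 integrin α subunits of leukocytes were dim in both arrays, with signals from 3.98 to 6.87 over 6 probe sets. All 6 were lower in the MLL1 KO array as deposited, by log2 differences from -0.35 to -0.06, but Itgae, Itgam and Itgax turned higher after removal of the lowess trend and after repeated quantile normalization. Among named probe sets with no signal over 7, a share of 28.3% were higher. Itgam, by whose product cells had been depleted, had signals of 3.98 in the MLL1 KO array and 4.04 in the Control array. A further 3 probe sets carry the symbols of both Itgam and Rpl35, a ribosomal protein gene, and were not used. Itgb2, the β subunit of leukocytes, had signals of 3.95 in the MLL1 KO array and 4.51 in the Control array. Itgb2l and Itgb7 were dim too, with log2 differences of -0.41 and -0.10, and that of Itgb7 turned to 0.08 without the trend.

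Among the β subunits the bright ones other than β1 were slightly higher. Itgb1, the partner of most α subunits and the common β subunit of muscle cells, had log2 signals of 10.52 in the MLL1 KO array and 10.64 in the Control array. The β1 subunit is the partner of α3 and 1 of the partners of α4, which also pairs with β7, and its gene had a log2 difference of -0.12. The other 3 β genes with a signal over 7 were all higher in the MLL1 KO array, under each of the 3 other scalings as well. Among all named probe sets with such a signal 57.6% were higher as deposited. In their own bins of signal, 17.1% of probe sets were as high as Itgb4 or higher, 13.6% as Itgb5 and 19.2% as Itgb6. Itgb5, which pairs with αv to bind vitronectin, had signals of 7.81 in the MLL1 KO array and 7.33 in the Control array and was 1.39-fold higher. Itgb6, an epithelial partner of αv that can release active TGFβ1 from its latent form, had 7.41 in the MLL1 KO array and 6.98 in the Control array and was 1.34-fold higher. Itgb4, the partner of α6 in hemidesmosomes of epithelia, had 9.97 in the MLL1 KO array and 9.74 in the Control array and was 1.18-fold higher. Itgb8, also a partner of αv in the release of TGFβ1, lay just under the limit with 6.90 in the MLL1 KO array and 6.51 in the Control array. None of these passed 1.5-fold. Itgb3, which pairs with αv and with the platelet subunit αIIb, was dim, with 5.78 in the MLL1 KO array and 5.56 in the Control array. All 5 epithelial markers were dim, with signals from 3.88 to 5.90 in the MLL1 KO array and from 4.22 to 6.05 in the Control array, and their median log2 difference was -0.15.

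The laminins differed mainly in the γ chain. Lamc1 (probe set 10358816), which encodes the γ1 chain present in most laminins, had a log2 signal of 8.26 in the MLL1 KO array and 8.95 in the Control array. It was 1.61-fold lower, the largest decrease of both families, and in its bin of signal 1.42% were as low or lower. Lamc3, which encodes the rarer γ3 chain, had the dimmer signals of 5.88 in the MLL1 KO array and 6.48 in the Control array and was 1.51-fold lower, just past 1.5-fold. Its log2 difference was -0.54 both under centring and without the lowess trend, short of that limit. Over all named probe sets, 0.748% were as low as Lamc1 or lower and 1.79% were as low as Lamc3 or lower. Neither passed the 2-fold limit.

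The α chains were all lower by less than 1.5-fold, under the deposited and the 3 other scalings. Lama2, the α2 chain of the basement membrane of muscle fibers, had signals of 8.83 in the MLL1 KO array and 9.06 in the Control array. Lama5, the α5 chain, which is widespread and a ligand of α3β1 and α6β1, had 8.87 in the MLL1 KO array and 8.98 in the Control array. Lama1, Lama3 and Lama4 were dim, with log2 differences of -0.40, -0.26 and -0.19. The β chains hardly differed. Lamb1 had signals of 9.86 in the MLL1 KO array and 9.81 in the Control array, and Lamb2, a chain of the neuromuscular junction, had 8.42 in the MLL1 KO array and 8.34 in the Control array, a difference that turned sign after repeated quantile normalization. Lamb3, a chain of epithelial laminin, had 6.57 in the MLL1 KO array and 6.62 in the Control array, and turned higher under centring. In all, 8 of 10 laminins were lower, and between 7 and 9 were lower under the other scalings. Of all 21789 named probe sets 12200 were lower, and 5 of the 10 laminins were dim, where 28.3% of named probe sets were higher. The median log2 difference was -0.22, and among the 5 with a signal over 7 the median was -0.10. The median of all named probe sets with such a signal was 0.05.

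**Figure D2:**
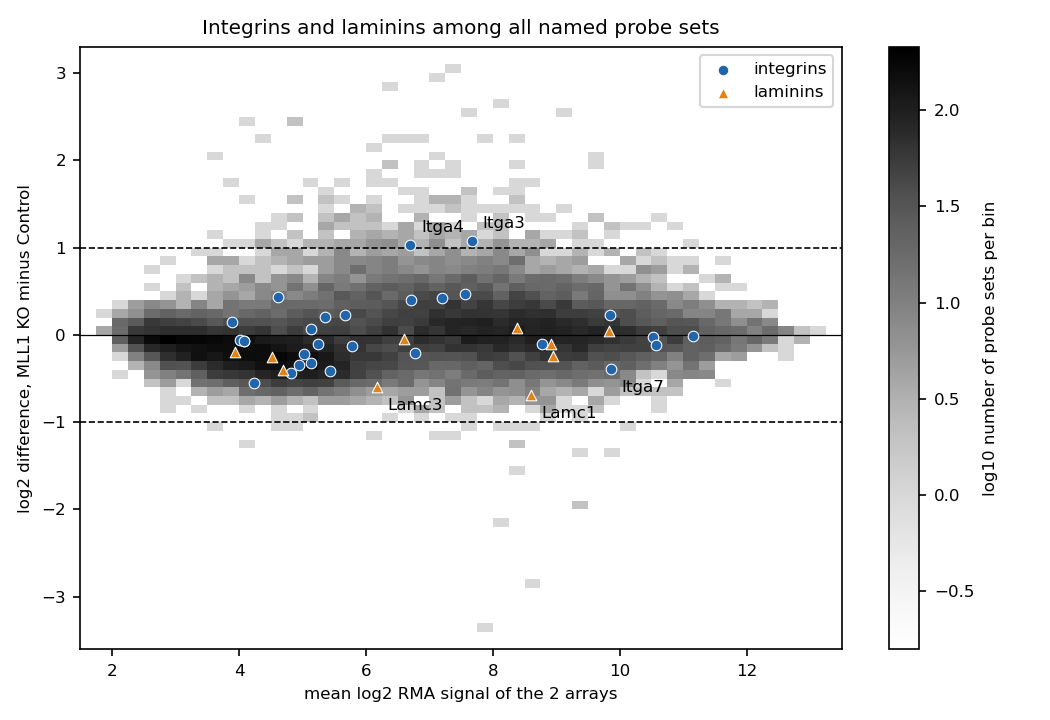
The log2 difference, MLL1 KO minus Control, is plotted against the mean log2 RMA signal of both arrays, with integrins as circles and laminins as triangles over the density of the 21789 named probe sets in grey, and dashed lines at 2-fold. Itga3 and Itga4 lie just above the upper dashed line, Lamc1 and Lamc3 lie between 0 and the lower one, and no other member passes 1.5-fold.

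Since these proteins act as assemblies, the subunits were also set side by side. Of 24 known integrin heterodimers, 9 had a signal over 7 for both subunits. In α4β1 and αvβ6 this rests on the MLL1 KO array alone, because Itga4 and Itgb6 were below 7 in the Control array. In α3β1 and α4β1 the α subunit RNA was over 2-fold higher while that of β1 had a log2 difference of -0.12. In α5β1, α6β1 and αvβ1 both subunits had log2 differences between -0.12 and -0.01, and in α7β1 the α subunit had -0.39. In αvβ5, αvβ6 and α6β4 the α subunit had a log2 difference near 0 and the β subunit was higher by 0.47, 0.42 and 0.23. Of 13 laminin trimers examined, 4 had a signal over 7 for all 3 chains, namely α2β1γ1, α2β2γ1, α5β1γ1 and α5β2γ1. All 4 contain γ1, the only γ chain with such a signal, and the γ1 RNA was the lowest of the 3 differences in each. The arrays measure RNA, so the amounts of these receptors and laminins were not measured.

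**Figure D3:**
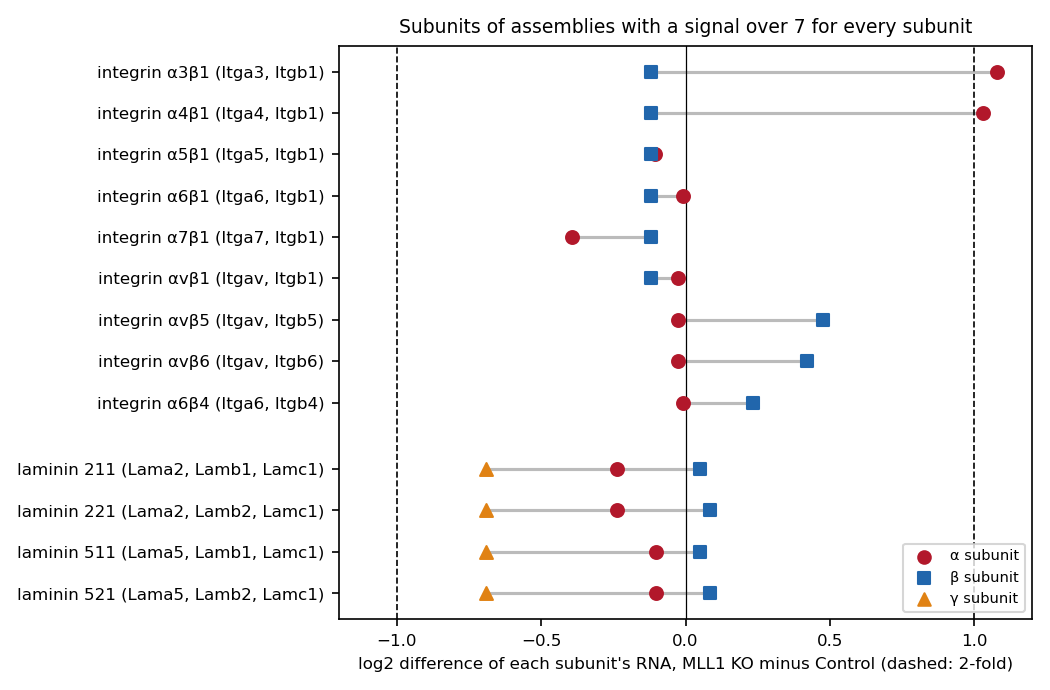
For the 9 integrin heterodimers and 4 laminin trimers in which every subunit had a signal over 7 in the higher array, each point is the log2 difference of 1 subunit's RNA, MLL1 KO minus Control, with circles for α, squares for β and triangles for γ subunits and dashed lines at 2-fold. Subunits shared between assemblies repeat. Itga3 and Itga4 lie at the right and Lamc1 lies at the left of every laminin.

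Genes of the cytoplasmic side of adhesion were also examined. Of 47 measured genes of the integrin adhesome, none passed 2-fold in either direction. Of all 19938 genes, 1.22% had a probe set over 2-fold higher and 0.11% had 1 over 2-fold lower. The list had 28 higher and 18 lower genes and a median of 0.07, beside -0.05 over all genes. Itgb3bp, left out of the members, is counted in this list as 1 of the higher genes. Of the 47 genes, 38 had a signal over 7. All named probe sets with such a signal had a median of 0.05, near that of the list, and 57.6% of them were higher. All 8 measured kinases and adaptors had such a signal and were higher as deposited, and 7 were higher without the lowess trend. Among them was Pxn, the scaffold paxillin, with log2 signals of 10.91 in the MLL1 KO array and 10.57 in the Control array. The activators Tln1 (talin 1) and Fermt2 (kindlin-2) had log2 differences of -0.21 and -0.39. The member farthest from 0 was Sharpin, an inhibitor of integrin activation and a subunit of a ubiquitin ligase complex, with 9.38 in the MLL1 KO array and 8.72 in the Control array.

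Of 9 measured genes of other receptors for laminin none passed 2-fold, against 1.22% higher and 0.11% lower of all genes. Of the 9 genes 6 were higher, beside 8298 of all 19938 genes, and the median was 0.03. Dag1, which encodes dystroglycan, had signals of 9.82 in the MLL1 KO array and 9.79 in the Control array. Bcam, which encodes the Lutheran receptor for the laminin α5 chain, had 6.94 in the MLL1 KO array and 6.38 in the Control array. The member farthest from 0 was Sgca, a sarcoglycan of the dystroglycan complex, with 10.64 in the MLL1 KO array and 10.08 in the Control array.

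Of 20 measured partners of laminin in the basement membrane, 1 passed 2-fold upward and none downward, against 1.22% and 0.11% of all genes. The list had 7 higher and 13 lower genes, beside 8298 higher and 11091 lower of all 19938 genes, and a median of -0.10. Its counts became 10 and 10 under centring, and 8 and 12 both without the lowess trend and after repeated quantile normalization. Tinagl1, a matricellular protein of basement membranes, was 2.86-fold higher, with signals of 7.63 in the MLL1 KO array and 6.12 in the Control array. Nid1, the nidogen that joins the laminin γ1 chain to type IV collagen, had 10.09 in the MLL1 KO array and 9.91 in the Control array, whereas Col4a1 had 8.01 in the MLL1 KO array and 8.06 in the Control array. Agrn, which encodes the proteoglycan agrin, had 8.56 in the MLL1 KO array and 7.89 in the Control array.

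Of 20 measured ligands of other integrins and related matrix proteins, 3 passed 2-fold upward and none downward, against 1.22% and 0.11% of all genes. The same 3 passed under the other scalings. Edil3, a secreted ligand of αv integrins, had signals of 8.67 in the MLL1 KO array and 7.24 in the Control array. Tgfb1, whose latent form is bound by αv integrins, had 9.77 in the MLL1 KO array and 8.33 in the Control array, and Ecm1, a secreted matrix glycoprotein, was 2.09-fold higher. Of the ligands of α4β1, Fn1 (fibronectin) had 12.18 in the MLL1 KO array and 11.66 in the Control array, while Vcam1 had 9.39 in the MLL1 KO array and 9.85 in the Control array. Neither passed 1.5-fold. Madcam1, a ligand of α4β7, was dim, with 4.41 in the MLL1 KO array and 4.99 in the Control array.

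**Figure D4:**
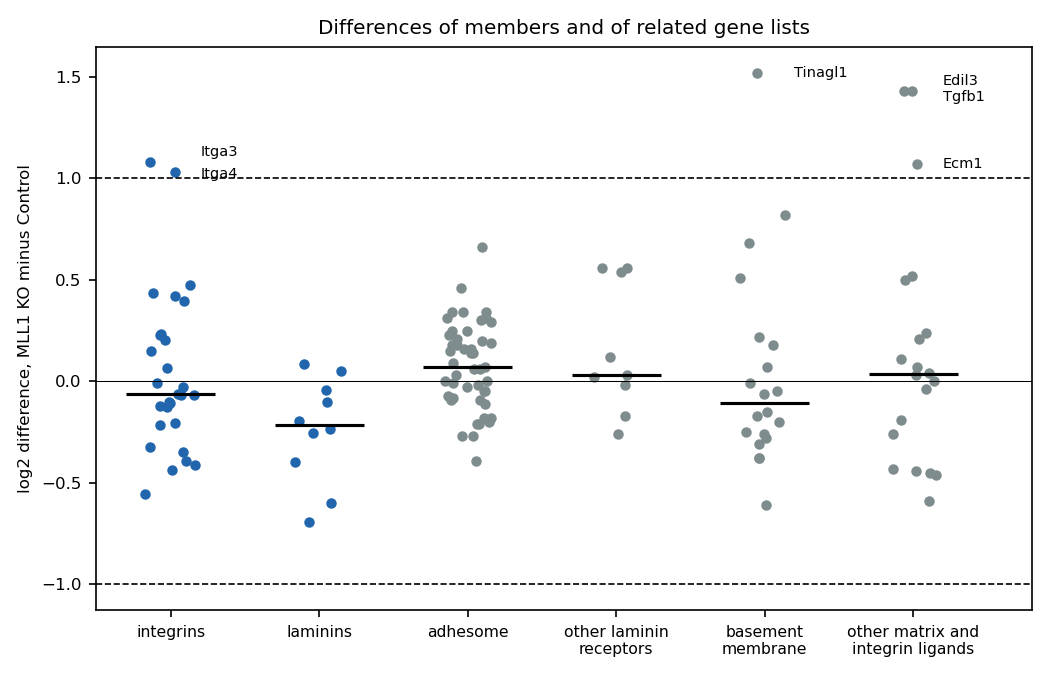
Each point is the log2 difference, MLL1 KO minus Control, of 1 probe set (integrins, laminins) or 1 gene (mean of its probe sets, other lists); black bars are medians and dashed lines mark 2-fold. The medians run from -0.22 for the laminins to 0.07 for the adhesome, and the named points are those over 2-fold.

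The genes next to the members on the chromosome were also examined. Of the 6 nearest measured protein coding genes of each, 3 on either side in the RefSeq order, none differed by over 2-fold beside Itga3, Itga4, Lamc1 or Lamc3. Their median log2 difference was 0.05 for Itga3, -0.09 for Itga4, 0.13 for Lamc1 and 0.29 for Lamc3. The differences ran from -0.39 to 0.9 beside Itga3 and from -0.29 to 0.38 beside Itga4. They ran from -0.34 to 0.51 beside Lamc1 and from -0.23 to 0.68 beside Lamc3, where 5 of the 6 were higher.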

How the data were processed

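RNA of 1 MLL1 KO and 1 Control culture was hybridised to Affymetrix MoGene 1.0 ST arrays. RMA (version not given in the sources used here) was applied by the authors, who deposited log2 signals of 35557 probe sets. The 6613 probe sets in the unbroken run of lowest numbers were taken as array controls and left out. Of the other 28944, 21789 have 1 symbol in the platform annotation, 1621 several and 5534 none here. The 38 member symbols equal those of RefSeq GRCm38.p6. Other lists used symbols updated by gene number, and a gene's mean over its probe sets.

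The members and lists were chosen with earlier results of these data known. Named are all members by role, and from each other list the genes over 2-fold, or the farthest from 0 where none passed, and some chosen after their values were seen. No test was possible. Promoter sequences are RefSeq's, of GRCm38.p6. The code was tested on simulated data. Alternatives were other fold and signal limits, differences centred on the median, removal of a lowess trend (span 0.3), repeated quantile normalization and 1 value per gene. Python 3.11.15, numpy 2.4.6, pandas 2.3.3, statsmodels 0.14.6 and matplotlib 3.10.9 were used.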

Additional observations from a re-analysis of the deposited data

How the results depend on the processing

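No paired analysis was possible because each condition has 1 array, and no replicate could be left out. Of the 38 members, none changed its side of the 2-fold limit after centring all differences on their median or after removal of the lowess trend, and 2, Itga3 and Itga4, lost it after repeated quantile normalization, which left 0 members over 2-fold higher. That count was 1 (Itga3) among probe sets with a signal over 8 and 0 at a 3-fold limit, and the count of lower members was 2 at a 1.5-fold limit. The median log2 difference of the integrins, -0.06, became 0.09 without the lowess trend, 0.05 after repeated quantile normalization and 0.11 among probe sets with a signal over 7, so that its sign depends on the scaling. The median of the laminins, -0.22, became -0.10 without the trend, -0.10 with a signal over 7 and -0.10 with a signal over 8, and stayed below 0 under every alternative run. The cause of these shifts was not tested. The share of members that were higher, 34.2%, became 42.1% after centring and 44.7% under either other scaling. The median over all named probe sets moved as well, from -0.05 to between -0.02 and 0.01. Counting Itgb3bp as a member, an alternative chosen after the data were seen, left the 2-fold counts at 2 and 0 and the integrin median at -0.06.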
